A study of Mus musculus with 26 samples.

Results

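The genes described here are 30 mouse genes whose products build and move the mitotic spindle, carry chromosomes along it or divide the cell, out of 18193 genes measured. They were chosen by name: 11 motor kinesins, 12 spindle assembly and microtubule-associated proteins, and 7 proteins of the central spindle, the contractile ring and abscission. Each gene was read from probe sets annotated to it alone. All 30 were present on the array.

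The samples were 26 single cells of newborn mouse retina, each hybridised to its own Affymetrix expression array. Every cell came from mice homozygous for a floxed Notch1 allele on a C57BL/6 background, electroporated in the living animal at postnatal day 0 and harvested at postnatal day 3. The 13 N1-CKO cells carried a plasmid with Cre recombinase under the CAG promoter together with CALNL-GFP, a reporter that turns on after Cre acts. The 13 WT cells carried CAG:GFP and kept the floxed allele, so "WT" stands for the absence of Cre and not for an unmodified Notch1 gene. CAG is active in most cell types, so Cre was not aimed at one of them, and GFP in an N1-CKO cell marks Cre activity and not the loss of Notch1 itself. Cells were picked by hand for GFP after dissociation. Which animal, litter or session a cell came from is not in the labels, so each group counts as 1 sample, no test between groups was made, and standard deviations (SD) describe cell-to-cell spread only.

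In a dividing cell, kinesins slide, depolymerise or walk along microtubules to set up a bipolar spindle and to align chromosomes. Microtubule-associated proteins nucleate, bundle and anchor the spindle fibres, and in anaphase the centralspindlin complex and its partners activate RhoA at the cell equator so that the contractile ring closes. Transcripts of most of these genes accumulate in G2 and mitosis and are low in cells that have left the cycle. In the newborn retina, Notch1 is known for keeping progenitors undifferentiated, and rod photoreceptors are the main neurons born at that age.

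Many such genes carry a cell cycle genes homology region (CHR) near their start. This is a short element through which the DREAM and MuvB complexes act, often with CCAAT boxes, the sites of NF-Y, beside it. The promoter sequences of the members with the most and the least different signal between the groups are therefore shown first. They come from RefSeq on GRCm38.p6, are given 5′ to 3′ on the gene's strand and cover 150 bases within a window from 250 bases before to 50 after the gene's start. Capitals mark the letters searched on both strands: TTTGAA for the CHR (TTCGAA was searched as well), CCAAT for the NF-Y box, and for E2F the runs TTTCCCGC, TTTGGCGC, TTTCGCGC and TTTGCCGC. A match on the opposite strand appears as its reverse complement. Arhgap11a, Nusap1 and Tacc3 had differences between N1-CKO and WT means among the 4 lowest of 8280 genes, whereas Ckap2 and Numa1 differed least among the members detected in at least 2 cells.
Arhgap11a, chr2:113848662-113848811, minus strand: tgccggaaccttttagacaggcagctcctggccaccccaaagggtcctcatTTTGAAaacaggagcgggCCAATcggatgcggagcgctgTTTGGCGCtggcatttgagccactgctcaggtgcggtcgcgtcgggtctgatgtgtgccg
Nusap1, chr2:119618148-119618297, plus strand: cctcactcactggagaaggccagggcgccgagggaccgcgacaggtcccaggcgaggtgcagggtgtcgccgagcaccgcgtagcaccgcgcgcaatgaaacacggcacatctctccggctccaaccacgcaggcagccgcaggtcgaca
Tacc3, chr5:33657978-33658127, plus strand: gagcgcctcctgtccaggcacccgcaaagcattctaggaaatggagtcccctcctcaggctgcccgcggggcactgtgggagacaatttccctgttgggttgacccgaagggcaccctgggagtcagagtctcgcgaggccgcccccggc
Ckap2, chr8:22185820-22185969, minus strand: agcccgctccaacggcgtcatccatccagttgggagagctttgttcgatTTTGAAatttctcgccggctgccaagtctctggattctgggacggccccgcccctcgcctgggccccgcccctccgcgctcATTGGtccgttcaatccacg
Numa1, chr7:101969693-101969842, plus strand: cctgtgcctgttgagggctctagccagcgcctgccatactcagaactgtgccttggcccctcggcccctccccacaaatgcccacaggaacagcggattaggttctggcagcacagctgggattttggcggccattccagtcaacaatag

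For 6 further members, picked after their values were seen, the 30 bases around a CHR match show the same element in different surroundings.
Ect2, chr3:27153975-27154004, minus strand: ccgtttaccggaTTTGAAacacactcacaa
Ckap2l, chr2:129297225-129297254, minus strand: ttATTGGcgaatTTCAAAgtcgcggaagcc
Kif22, chr7:127042420-127042449, minus strand: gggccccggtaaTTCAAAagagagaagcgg
Prc1, chr7:80294434-80294463, plus strand: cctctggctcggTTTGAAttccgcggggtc
Racgap1, chr15:99651634-99651663, minus strand: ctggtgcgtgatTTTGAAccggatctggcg
Aspm, chr1:139454767-139454796, plus strand: ggaggcgcgataTTTGAAccgagcaaaagc

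The promoter table held 27 of the 30 members, with 30 promoters, and listed none for Tpx2, Kif20a and Dlgap5. CHR letters were present in 25 of these 30 promoters (83.3%), against 19.2% of all 32851 promoters of that length in the table. The 5 genes with no match in the window were Cit, Kif18a, Numa1, Nusap1 and Tacc3. CCAAT was present in 63.3% of member promoters against 37.4% of all, and E2F-type letters in 10.0% against 2.26%. Some promoters of 1 gene overlap, so the 32 CHR matches lie at 28 distinct sites. Matches began between 234 bases before and 42 bases after the annotated start, with 16 of them before it, and no match overlapped one of another motif. Genes with matches and genes without stood at both ends of the signal differences: Nusap1, Tacc3 and Numa1 held none of the 3 motifs, whereas Arhgap11a held all 3 and Ckap2 held CHR and CCAAT. A match is a stretch of letters and not a measured binding site.

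Signals were compared on the log2 scale, with values under 25.02 raised to that level (log2 of 4.65). Detection in a cell meant a place among the brightest 10% of probe sets on that cell's array, which makes 4504 probe sets per cell and a limit between 245 and 2409 signal units. Of the 30 genes, 23 were detected in at least 2 cells, and only these enter counts and medians of differences. A gene that passed through WT cells alone was bound to be lower in N1-CKO cells, so the counts are set beside the same counts over all 8280 genes that passed. Differences subtract the WT mean of log2 signal, over 13 cells, from the N1-CKO mean. Such a value mixes how many cells held a transcript with its level in them.

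Transcripts of spindle, kinesin and cytokinesis genes were detected less often in N1-CKO cells (45 of 390 pairs of gene and cell) than in WT cells (147 of 390). Of the 23 genes past the filter, 22 had a lower mean in N1-CKO cells, where 51.5% of all genes did. A difference of -2 or below, which is at least 4-fold, was found for 19 of them, where 6.92% of all genes had one. Detection in at least 4 fewer N1-CKO cells held for 15, against 6.73% of all genes. Their median difference was -2.63, against -0.04 for all genes. Among the 23, only Numa1 had a higher mean in N1-CKO cells. Of the 23, 5 (Ect2, Kif2c, Kif18a, Kif11 and Cep55) passed through WT cells alone and 0 through N1-CKO cells alone. The direction of these 5 was given by the filter.

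N1-CKO cells had 1 to 11 of the 30 genes detected, with a median of 3, and WT cells 2 to 19, with a median of 10. The groups overlapped. N1-CKO cells 3 and 1, with 11 and 7 genes, stood above the other N1-CKO cells (1 to 4), and WT cells 7 and 12, with 3 and 2, below the other WT cells (7 to 19). WT cells 6, 9, 10, 11 and 13, with 7 to 10 genes, also lay within the N1-CKO range. At least 5 genes were detected in 2 of 13 N1-CKO cells (15.4%, exact 95% interval 1.92 to 45.4) and in 11 of 13 WT cells (84.6%, interval 54.6 to 98.1). At least 10 were detected in 1 N1-CKO cell and 7 WT cells. These intervals cover counting error only. The mean log2 signal over the 30 genes was 6.40 ± 0.98 in N1-CKO cells and 8.72 ± 1.82 in WT cells (SD over 13 cells each), a difference of -2.32 that is larger than either SD.

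**Figure D1:**
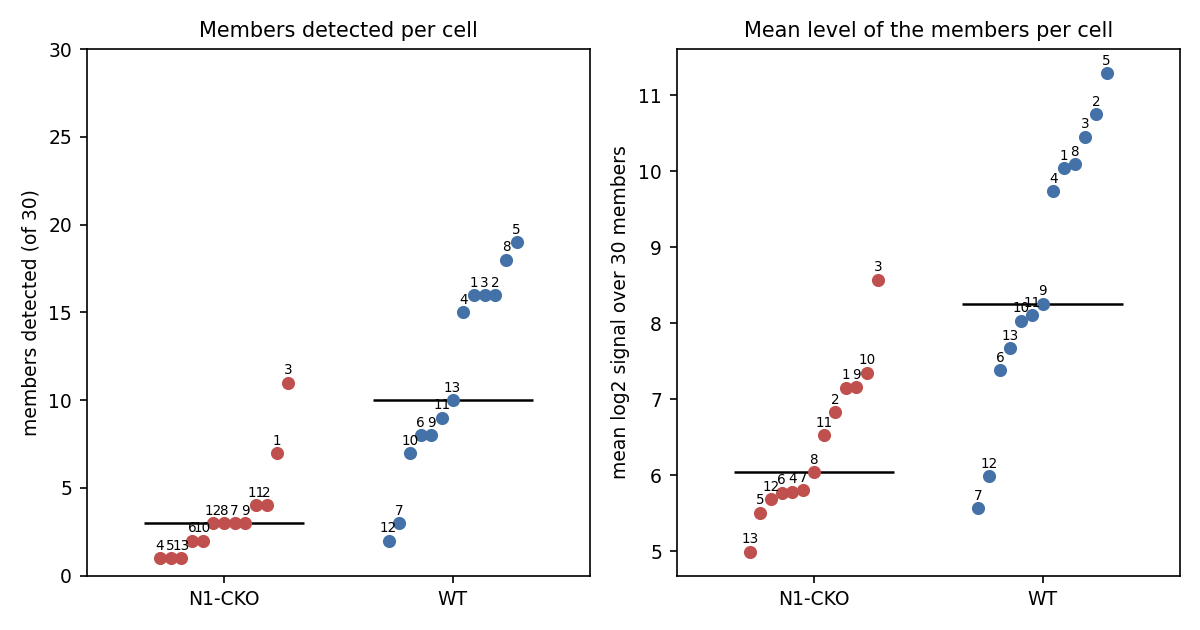
Left, number of the 30 genes detected in each cell; right, mean log2 signal of the 30 genes in each cell; N1-CKO cells in red, WT cells in blue, labelled by cell number, with a line at each group's median. The N1-CKO median is 3 genes and the WT median 10, and the ranges of 1 to 11 and 2 to 19 genes overlap.

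**Figure D2:**
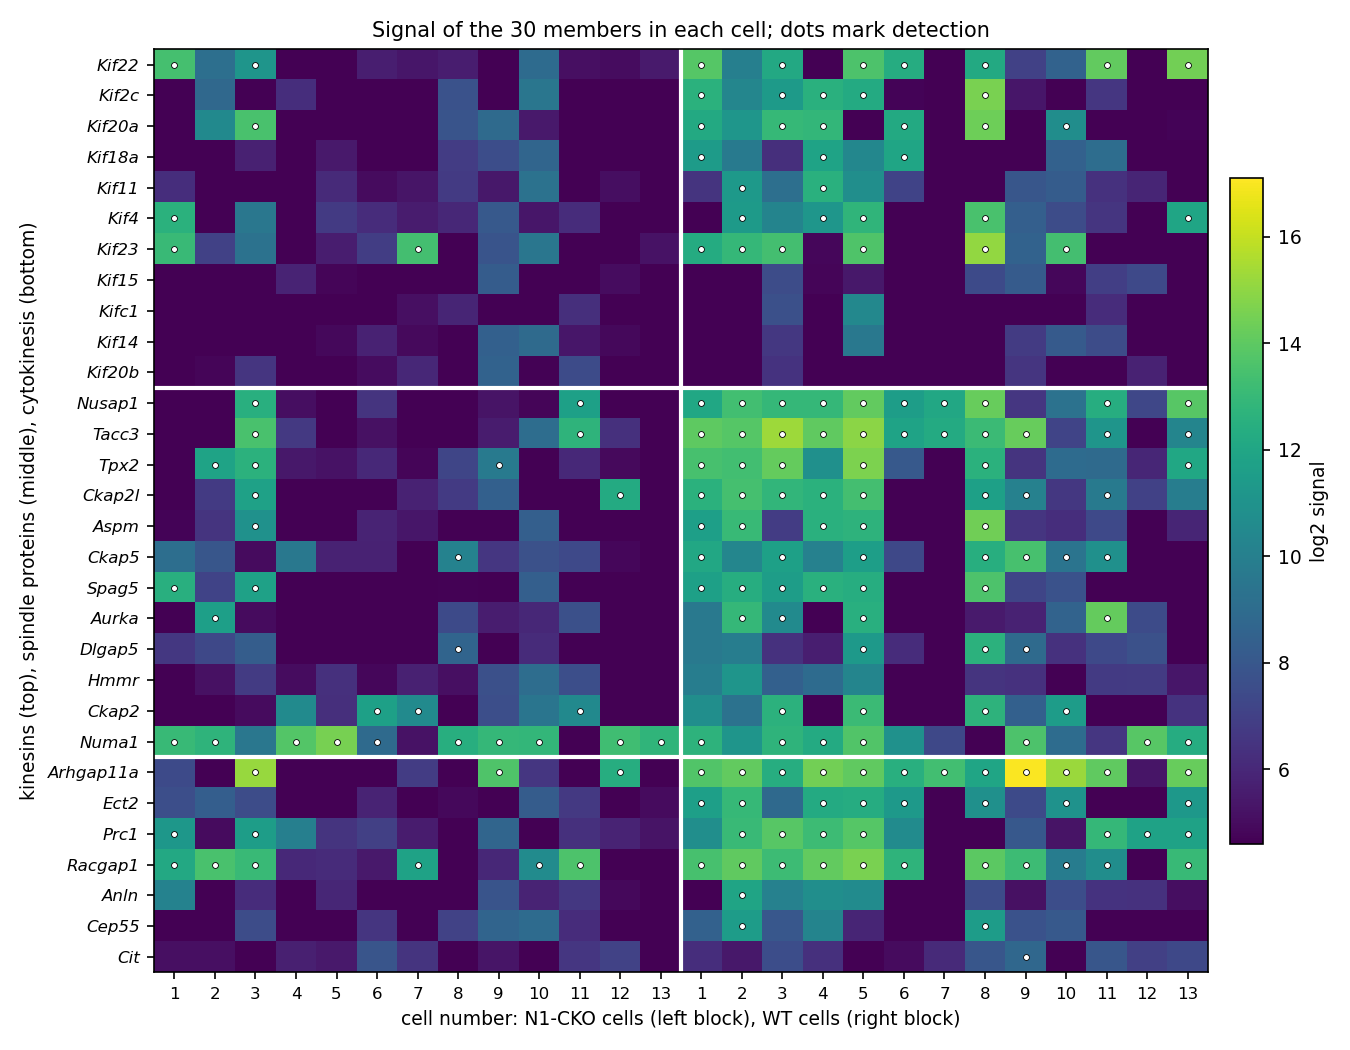
Log2 signal of each of the 30 genes (rows, in 3 blocks by role) in each cell (columns, N1-CKO cells in the left block and WT cells in the right), with a dot where the gene was detected. WT cells 1 to 5 and 8 hold 15 to 19 detected genes each, and Numa1 is the only row with more dots on the N1-CKO side.

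Among the central spindle and cytokinesis genes, all 5 past the filter were lower, 4 of them by at least 4-fold, with a median of -3.26. Over all genes past the filter, 51.5% were lower and 6.92% by at least 4-fold. Ect2 and Cep55 passed through WT cells alone. N1-CKO cells had a median of 1 of the 7 genes detected (0 to 3) and WT cells 3 (1 to 6). Arhgap11a, a GTPase-activating protein of RhoA, had the lowest difference of all 8280 genes. In N1-CKO cells its log2 signal ran from 4.65 to 15.16 with a median of 4.65, and in WT cells from 5.31 to 17.01 with a median of 14.07. Detection was in N1-CKO cells 3, 9 and 12 only, and in every WT cell but number 12. The groups overlapped through these cells, and the difference of -5.98 (7.27 ± 3.85 in N1-CKO cells, 13.25 ± 2.72 in WT cells) was larger than either SD.

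Ect2 encodes the exchange factor that loads RhoA with GTP at the equator, the opposite activity to that of Arhgap11a. Ect2 was detected in 0 of 13 N1-CKO cells, which allows a share of up to 24.7%, and in 8 of 13 WT cells. Its log2 signal lay between 4.65 and 8.32 (median 4.98) in N1-CKO cells and between 4.65 and 12.95 (median 10.95) in WT cells. The difference was -3.58, again larger than either SD (5.94 ± 1.50 in N1-CKO cells, 9.52 ± 3.13 in WT cells).

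Prc1, which crosslinks antiparallel microtubules of the central spindle, was detected in 2 N1-CKO cells (1 and 3) and 7 WT cells. Its signal reached 11.56 in N1-CKO cells (lowest 4.65, median 6.33) and 13.87 in WT cells (lowest 4.65, median 11.81), and the difference of -3.26 was within the WT spread (7.09 ± 2.46 in N1-CKO cells, 10.35 ± 3.50 in WT cells). Racgap1, the GTPase-activating subunit that joins Kif23 in centralspindlin, was the member after Numa1 most often detected in N1-CKO cells. It was found in 6 of 13 N1-CKO cells (46.2%, interval 19.2 to 74.9) and 11 of 13 WT cells (84.6%, interval 54.6 to 98.1), with a difference of -3.05.

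Cep55, which brings the abscission machinery to the midbody, was detected in 0 N1-CKO cells and in WT cells 2 and 8. Its signal lay between 4.65 and 8.97 (median 4.65) in N1-CKO cells and between 4.65 and 11.51 (median 7.74) in WT cells, a difference of -1.33 within the cell spread. The contractile ring scaffold gene Anln and the midbody kinase gene Cit were each detected in 1 WT cell, numbers 2 and 9, and in 0 N1-CKO cells, so they did not pass the filter. A further Cit probe set was detected in 1 N1-CKO cell and 0 WT cells, and another in 0 N1-CKO cells and 1 WT cell.

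Of the 12 spindle proteins, 11 passed the filter, 10 were lower and 9 were lower by at least 4-fold, with a median of -2.63. The shares over all genes were 51.5% lower and 6.92% lower by at least 4-fold. N1-CKO cells had a median of 2 of the 12 detected (1 to 6) and WT cells 5 (1 to 11). Nusap1, which bundles microtubules near chromosomes, had log2 signals from 4.65 to 12.48 in N1-CKO cells (median 4.65) and from 6.60 to 14.20 in WT cells (median 12.37). It was among the brightest transcripts of N1-CKO cells 3 and 11 only, against 10 WT cells, and these cells made the groups overlap. The difference of -5.72 (6.02 ± 2.75 in N1-CKO cells, 11.74 ± 2.49 in WT cells) ranked second lowest of all genes.

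Tacc3, which joins the microtubule polymerase Ckap5 on spindle fibres, was detected in the same N1-CKO cells 3 and 11 and in 11 WT cells. Signals ran from 4.65 to 13.53 in N1-CKO cells (median 5.15) and from 4.65 to 15.28 in WT cells (median 13.14). The difference was -5.37 (6.68 ± 3.13 in N1-CKO cells, 12.05 ± 3.14 in WT cells). All 3 of Arhgap11a, Nusap1 and Tacc3 were detected in 1 N1-CKO cell and 10 WT cells, and none of the 3 in 9 N1-CKO cells and 1 WT cell. For Ckap5 itself, detection was in 1 N1-CKO cell and 7 WT cells, with a difference of -2.63.

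Tpx2 activates the kinase Aurka and nucleates microtubules around chromosomes. Its signal reached 12.65 in N1-CKO cells (lowest 4.65, median 5.43) and 14.62 in WT cells (lowest 4.65, median 10.86). It was detected in N1-CKO cells 2, 3 and 9 and in 6 WT cells, and differed by -3.57 (6.74 ± 2.82 in N1-CKO cells, 10.31 ± 3.36 in WT cells). Aurka was detected in 1 N1-CKO cell, number 2, and 4 WT cells, with a difference of -2.31. In mice Ckap2l is a spindle protein of neural progenitors. It was detected in 2 N1-CKO cells and 8 WT cells and differed by -3.45, with signals up to 12.25 in N1-CKO cells (lowest 4.65, median 4.65) and up to 13.40 in WT cells (lowest 4.65, median 10.10).

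Aspm, a spindle pole protein whose human counterpart is mutated in microcephaly, was detected in 1 N1-CKO cell, number 3, and 5 WT cells, with a difference of -2.83. Spag5, a kinetochore and spindle protein also called astrin, was detected in 2 N1-CKO cells and 6 WT cells (-2.37). Dlgap5, which stabilises kinetochore fibres, was detected in 1 N1-CKO cell and 3 WT cells. Its signal reached 8.63 in N1-CKO cells (lowest 4.65, median 4.65) and 12.61 in WT cells (lowest 4.65, median 7.34), a difference of -2.08. Hmmr, a hyaluronan-binding spindle protein, was detected in 0 cells of either group.

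Ckap2 and Numa1 stood apart from the other spindle genes. Ckap2, a microtubule stabiliser, was detected in N1-CKO cells 6, 7 and 11 and in WT cells 3, 5, 8 and 10, with signals up to 11.71 in N1-CKO cells (lowest 4.65, median 6.30) and 13.11 in WT cells (lowest 4.65, median 8.42). The difference of -1.01 was less than either SD (7.30 ± 2.86 in N1-CKO cells, 8.32 ± 3.53 in WT cells). Numa1 ties dynein to spindle poles in mitosis and is a nuclear protein in interphase. It was detected in 10 N1-CKO cells (76.9%, interval 46.2 to 94.96) and 7 WT cells (53.8%, interval 25.1 to 80.8). Numa1 signal ran from 4.65 to 14.53 in N1-CKO cells (median 12.77) and from 4.65 to 13.83 in WT cells (median 12.25), and the groups overlapped almost fully, with 11.28 ± 3.21 in N1-CKO cells and 10.83 ± 3.01 in WT cells (difference 0.45). A further Numa1 probe set was detected in 8 cells of each group and differed by 0.32. The sign of Numa1 turned to -0.55 over cells whose Gapdh control probe sets had a 3′ to 5′ ratio of 3 or less and to -0.06 without WT cell 8.

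Of the 11 kinesins, 7 passed the filter, all 7 were lower and 6 were lower by at least 4-fold, with a median of -2.38. The shares over all genes were 51.5% and 6.92%. Kif2c, Kif18a and Kif11 passed through WT cells alone, so the count of 7 is partly fixed by the filter. N1-CKO cells had a median of 0 kinesins detected (0 to 3) and WT cells 3 (0 to 5). Kif22, a chromokinesin that pushes chromosomes towards the equator, was detected in N1-CKO cells 1 and 3 and in 7 WT cells. Its signal reached 13.39 in N1-CKO cells (lowest 4.65, median 5.50) and 14.44 in WT cells (lowest 4.65, median 12.13). The difference of -3.33 lay within the WT spread (6.83 ± 2.87 in N1-CKO cells, 10.16 ± 3.82 in WT cells).

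Kif2c, which depolymerises microtubule ends at centromeres, was detected in 0 N1-CKO cells and 5 WT cells (difference -2.68). Kif18a, which damps chromosome oscillations, was detected in 0 N1-CKO cells and 3 WT cells (-2.38), and Kif11, the motor that pushes spindle poles apart, in 0 N1-CKO cells and 2 WT cells (-2.12). Kif20a carries the passenger complex to the central spindle and was detected in 1 N1-CKO cell and 6 WT cells (-2.39). Kif4, a chromokinesin that works with Prc1, was detected in 1 N1-CKO cell and 5 WT cells (-2.09).

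Kif23, the motor subunit of centralspindlin, had the highest difference of the 7 kinesins. It was detected in N1-CKO cells 1 and 7 and in 6 WT cells, with signals up to 13.35 in N1-CKO cells (lowest 4.65, median 6.88) and 15.09 in WT cells (lowest 4.65, median 8.55). The difference of -1.61 was smaller than either SD (7.42 ± 3.09 in N1-CKO cells, 9.02 ± 4.43 in WT cells). Kif15, Kifc1, Kif14 and Kif20b were detected in 0 cells of either group, so that nothing can be said of their direction at this sensitivity.

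**Figure D3:**
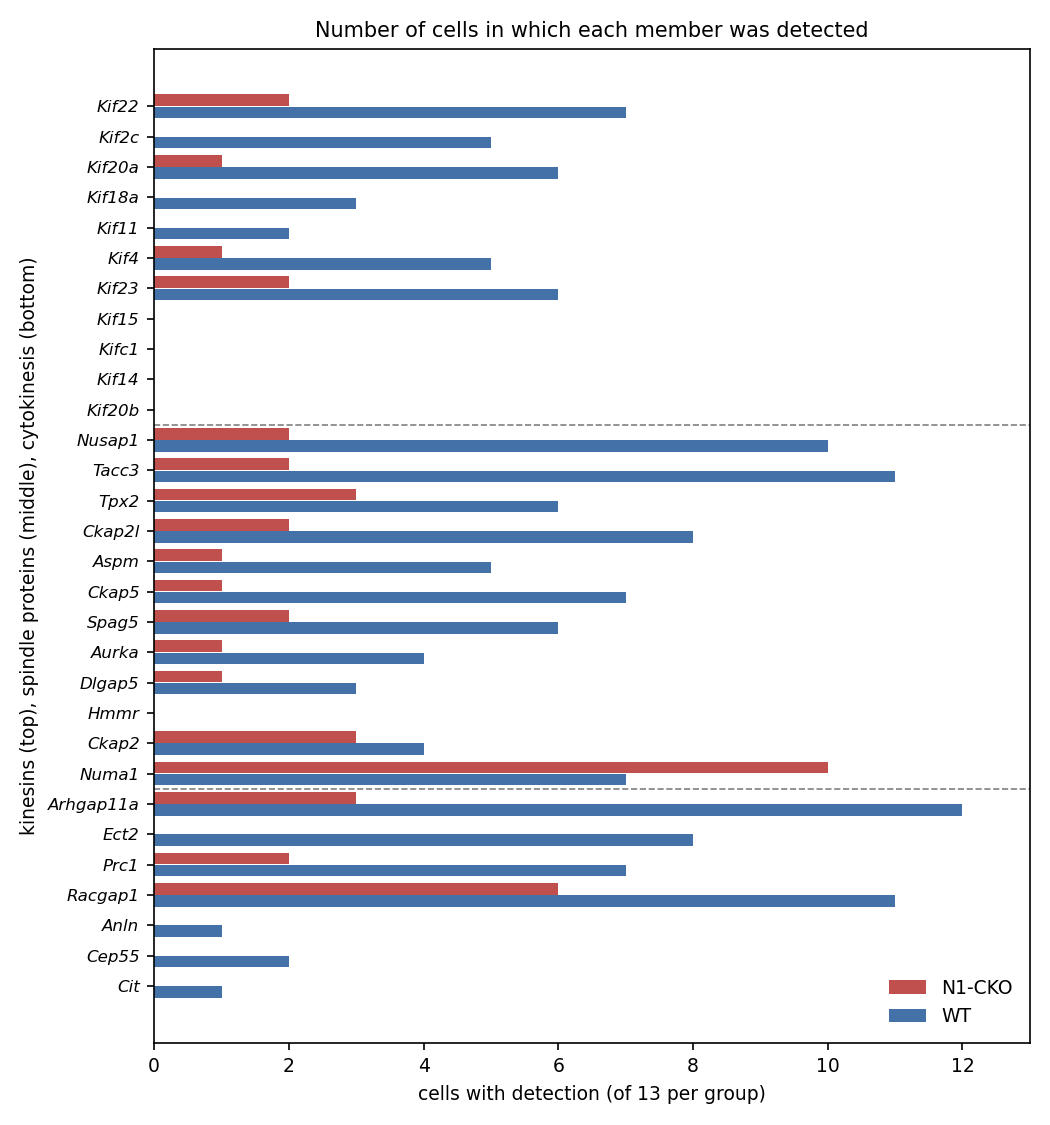
Number of cells, of 13 per group, in which each of the 30 genes was detected, N1-CKO bars in red above WT bars in blue, with genes in 3 blocks by role. Numa1 has the longer N1-CKO bar (10 cells against 7), every other gene with bars has the longer WT bar, and 5 genes have none.

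Proteins that act as pairs were compared for detection in the same cell. Kif23 was found together with its partner Racgap1 in 2 of the 2 N1-CKO cells and 6 of the 6 WT cells that held Kif23. Ect2, which binds Racgap1, was found with it in 8 of 8 WT cells. Because Ect2 was detected in 0 of 13 N1-CKO cells, the 6 N1-CKO cells that held Racgap1 were bound to lack Ect2, which says nothing of the pair. Ckap5 and Tacc3 were detected together in 0 N1-CKO cells and 6 WT cells, Aurka and Tpx2 in 1 N1-CKO cell and 3 WT cells, and Prc1 and Kif4 in 1 N1-CKO cell and 4 WT cells. Because WT cells held more of these transcripts in all, joint detection there is partly given by their number.

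In cells where a transcript was detected, its level could be compared between groups for the 5 genes found in at least 3 cells of each. Arhgap11a then had a log2 signal of 13.73 ± 1.39 in 3 N1-CKO cells and 13.91 ± 1.36 in 12 WT cells, a difference of -0.18. Racgap1 had 12.47 ± 1.17 in 6 N1-CKO cells and 12.97 ± 1.45 in 11 WT cells (-0.50), and Numa1 12.72 ± 1.46 in 10 N1-CKO cells and 13.02 ± 0.68 in 7 WT cells (-0.30). For these 3 genes the level in cells with detection differed by less than the spread. For Tpx2 the levels were 11.40 ± 1.51 in 3 N1-CKO cells and 13.36 ± 0.95 in 6 WT cells (-1.96), and for Ckap2 10.94 ± 0.66 in 3 N1-CKO cells and 12.49 ± 0.67 in 4 WT cells (-1.55), both larger than the SDs. Detection itself sets a lower limit on these levels, and that limit differed between arrays.

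A few N1-CKO cells held a larger part of the set. Leaving Numa1 aside, detections summed over cells were 35 of 377 in N1-CKO cells and 140 of 377 in WT cells, and N1-CKO cells 3 and 1 held 17 of the 35. N1-CKO cell 3 had 11 genes from all 3 roles: Kif20a and Kif22, then Aspm, Ckap2l, Nusap1, Spag5, Tacc3 and Tpx2, then Arhgap11a, Prc1 and Racgap1. N1-CKO cell 1 had Kif4, Kif22, Kif23, Spag5, Prc1 and Racgap1 beside Numa1, and none of Arhgap11a, Nusap1 and Tacc3. In N1-CKO cells 4, 5 and 13, Numa1 was the only one of the 30 detected. Of the WT cells, number 12 had Numa1 and Prc1, and number 7 had Arhgap11a, Nusap1 and Tacc3.

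Other cell cycle genes were read in the same cells from lists of related function. In N1-CKO cell 3, 9 of 24 mitotic kinase, kinetochore and checkpoint genes and 9 of 20 DNA replication genes were detected, and in N1-CKO cell 1, 12 and 4. N1-CKO cell 4, with Numa1 alone among the spindle genes, had 12 replication genes and 4 of the kinase list. WT cell 12, with 2 spindle genes, likewise had 12 replication genes and 3 of the kinase list. WT cell 8, with 18 spindle genes, had 20 of the kinase list and 5 replication genes. Cells could thus hold many replication transcripts and few spindle transcripts, and the other way round.

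The number of spindle genes detected was set against these lists over the 13 cells of each group. Against the kinase list, Pearson's r was 0.79 in N1-CKO cells and 0.91 in WT cells (Spearman's coefficient 0.75 in N1-CKO cells and 0.89 in WT cells). Leaving out the 2 cells of each group farthest from its median of the kinase list (N1-CKO cells 1 and 3, WT cells 7 and 12) gave r of 0.55 in N1-CKO cells and 0.87 in WT cells. WT cell 2, with 23 genes of that list, lay as far from the WT median of 13 as WT cells 7 and 12, and was kept. Against replication genes, r was 0.31 in N1-CKO cells and -0.08 in WT cells (Spearman's coefficient 0.29 in N1-CKO cells and -0.16 in WT cells). Without the same cells it was 0.08 in N1-CKO cells and -0.12 in WT cells. Leaving out the cells farthest on the replication list instead (N1-CKO cells 2 and 4, WT cells 4 and 6) gave r against replication genes of 0.78 in N1-CKO cells and -0.15 in WT cells, and against the kinase list of 0.83 in N1-CKO cells and 0.91 in WT cells. The N1-CKO value against replication genes thus depends on which cells are kept. These are descriptions over cells that share an array platform and a detection rule.

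**Figure D4:**
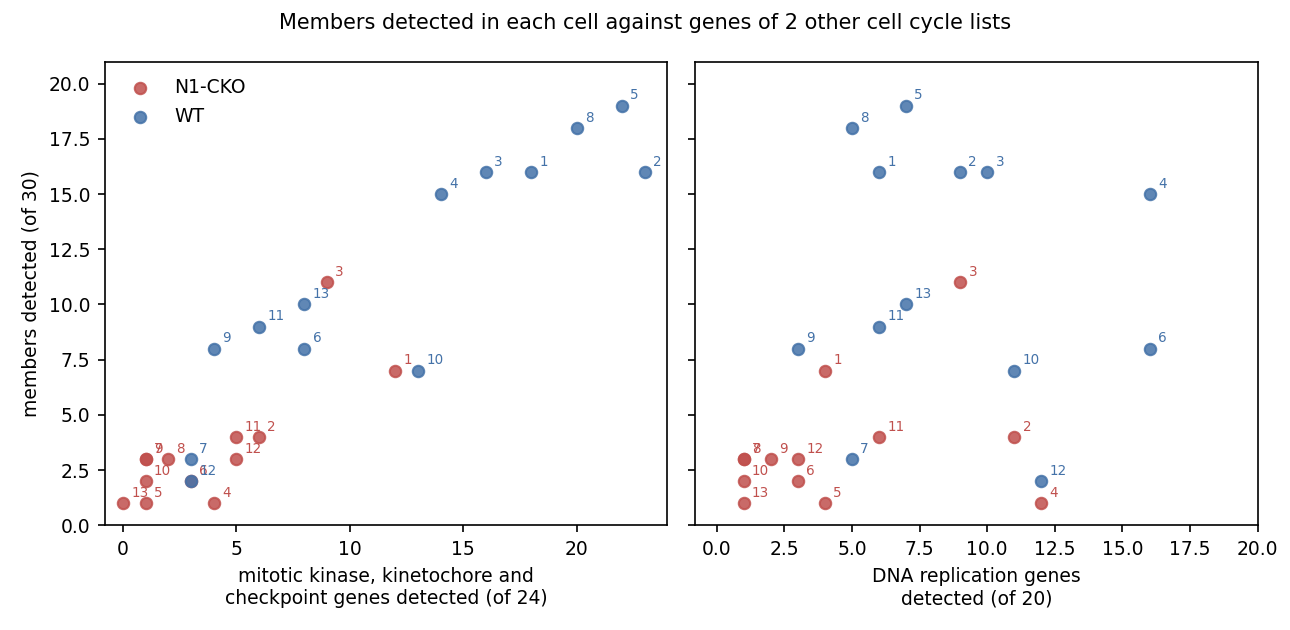
Number of the 30 genes detected in each cell (vertical axis) against the number of mitotic kinase, kinetochore and checkpoint genes (left, of 24) and of DNA replication genes (right, of 20), N1-CKO cells in red and WT cells in blue, labelled by cell number. On the left the WT cells rise along a diagonal (r of 0.91), and on the right they do not (r of -0.08).

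Related lists were read beside the 30 members. Their counts stand against 51.5% of all genes lower and 6.92% lower by at least 4-fold. Some genes of these lists, such as Espl1 and Bora, passed the filter through WT cells alone and were bound to be lower. Of 14 chromosomal passenger and other mitotic spindle genes past the filter, 14 were lower in N1-CKO cells, 10 by at least 4-fold, with a median of -2.52. They included the passenger subunit Cdca8 (detected in 2 N1-CKO and 9 WT cells, difference -4.63), the separase gene Espl1 (0 N1-CKO and 6 WT cells, -4.19) and Bora, an activator of Aurka (0 N1-CKO and 4 WT cells, -3.02), and the highest was Gtse1 (-0.62). Of 24 kinase, kinetochore and checkpoint genes, 23 were lower, 16 by at least 4-fold, with a median of -2.83, led by Cdc20 (-4.36), Mki67 (-4.22) and Ube2c (-3.92), with Spc24 highest at 0.29. For DNA replication, 14 of 19 genes were lower, 9 by at least 4-fold, with a median of -1.56. Rrm1 (-4.81), Uhrf1 (-3.68) and Mcm3 (-3.30) were lowest and Mcm2 highest at 0.56.

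Genes of the centrosome, of augmin and of general microtubule control, which interphase cells also use, had a median of -0.45. Of these, 17 of 23 were lower and 4 were lower by at least 4-fold, where 51.5% and 6.92% of all genes were. Nde1 (-3.61), Plk4 (-2.83) and Cep192 (-2.24) were lowest and the centriole gene Sass6 highest (1.70). The tubulin-binding gene Stmn1 was detected in all 13 cells of each group and differed by -0.07. Kinesins and kinesin light chains of cargo transport, relatives of the mitotic motors, had 7 lower and 9 higher of 16, with a median of 0.31. Kif3a (-2.30) was lowest and the light chain Klc4 highest (5.19, detected in 8 N1-CKO cells and 1 WT cell). N1-CKO cells had a median of 5 transport kinesins detected and WT cells 4. CHR letters were found in 69.2% of promoters of the passenger list and 65.2% of the kinase list, against 13.6% for replication, 13.6% for centrosome and 6.25% for transport kinesin genes.

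**Figure D5:**
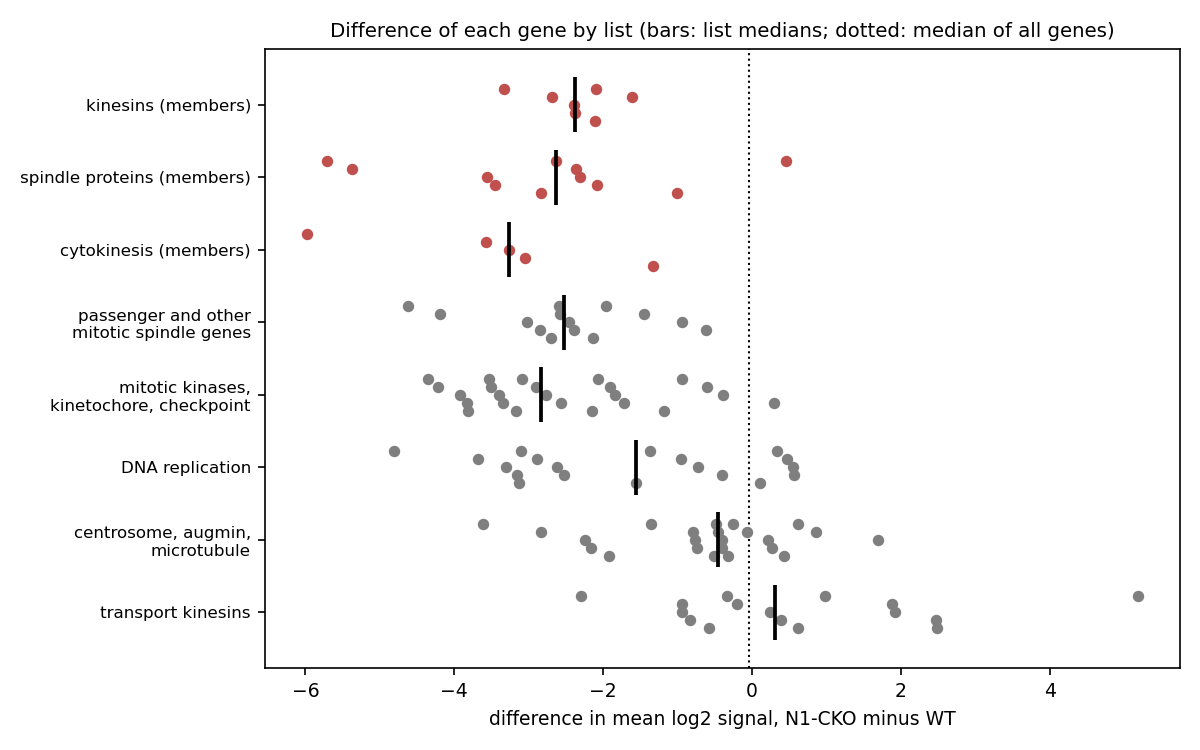
Difference in mean log2 signal, N1-CKO minus WT, of each gene past the filter (points) for the members by role (red) and for related lists (grey), with a bar at each list's median and a dotted line at the median of all genes (-0.04). The 3 member groups, the passenger list and the kinase list have medians between -3.26 and -2.38, replication genes -1.56, and transport kinesins 0.31.

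Markers of cell types also differed in number between the groups. Of 11 retinal progenitor markers, N1-CKO cells had a median of 4 detected (0 to 10) and WT cells 7 (3 to 10). Photoreceptor markers had a median of 6 of 9 in N1-CKO cells (1 to 7) and 2 in WT cells (0 to 6), and neuron markers 4 of 9 in N1-CKO cells (2 to 7) and 3 in WT cells (0 to 5). Log2 signal summed over the progenitor list ran from 59.1 to 131 in N1-CKO cells and from 75.7 to 137 in WT cells. Over the photoreceptor list it ran from 52.6 to 124 in N1-CKO cells and from 50.5 to 101 in WT cells, and over the neuron list from 64.4 to 107 in N1-CKO cells and from 47.2 to 88.7 in WT cells, so all 3 lists overlapped. The photoreceptor marker Rcvrn and the neuron marker Elavl4 were detected in 0 cells of either group, and Aipl1 in 0 N1-CKO cells. In WT cells the number of spindle genes went against the number of neuron markers (r of -0.62, Spearman's coefficient -0.60) and photoreceptor markers (r of -0.61, Spearman's coefficient -0.53), whereas in N1-CKO cells r was 0.49 and 0.38. N1-CKO cells 3 and 1, which held the most spindle genes of their group, had 7 and 6 photoreceptor markers and 6 and 10 progenitor markers. WT cell 8 had 0 photoreceptor and 0 neuron markers. Müller glia markers had a median of 2 of 6 in N1-CKO cells and 2 in WT cells, and amacrine markers 1 of 5 in N1-CKO cells and 0 in WT cells. Bipolar and endothelial markers were detected in 0 cells, and microglia, astrocyte, pigment epithelium and red blood cell lists reached at most 1 marker in a cell. The part of cell type in the differences between groups was not tested.

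Notch1, the gene targeted by Cre, was detected in 8 N1-CKO cells and 10 WT cells, with 10.35 ± 4.21 in N1-CKO cells and 12.00 ± 3.06 in WT cells, a difference of -1.65 that is smaller than either SD. Whether its probes lie in the deleted stretch is unknown, so this checks neither label.

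Array quality differed within and between the groups, and the values bear on these genes. A control probe set for 18S ribosomal RNA split the cells at its largest gap into a high 18S set of 5 N1-CKO and 5 WT cells and a low 18S set of 8 and 8. What the split stands for is not given in the labels, and 2 other 18S control probe sets have their largest gap elsewhere. In the high set the median number of spindle genes was 3 in N1-CKO cells (2 to 11) and 8 in WT cells (2 to 18). In the low set it was 2.5 in N1-CKO cells (1 to 7) and 15.5 in WT cells (3 to 19). The median difference was -1.32 over 17 genes in the high set, with 15 lower and 6 lower by at least 4-fold, where 13.8% of all genes were. In the low set it was -4.03 over 21 genes, with 20 lower and 18 lower by at least 4-fold, where 16.1% of all genes were.

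Single genes followed the sets unequally. In the low set, Tacc3 was detected in 0 of 8 N1-CKO cells (highest signal 6.67) and 8 of 8 WT cells (lowest 10.29), and Nusap1 in 0 of 8 (highest 6.48) and 8 of 8 (lowest 11.58), so that for both genes the groups did not overlap there. Of all genes detected in at least 2 cells of that set, 0.0428% (3 of 7007) had every N1-CKO cell below every WT cell. Over all 13 cells per group, the groups overlapped for both genes. In the high set the groups overlapped: Tacc3 was detected in 2 of 5 N1-CKO cells and 3 of 5 WT cells (difference -0.96), and Nusap1 in 2 of 5 cells of each group (-2.17). Arhgap11a differed by -3.77 in the high and -7.36 in the low set. Ect2 was detected in 0 N1-CKO cells of either set and in 2 WT cells of the high and 6 of the low set. Tpx2 differed by -0.53 in the high set, where it was detected in 2 N1-CKO cells and 1 WT cell, and by -5.46 in the low set. In the high set, 3 of the 23 genes had the other sign, Cep55 (0.34), Kif20a (0.27) and Kif18a (0.40). The difference in mean level per cell was -0.96 in the high set, smaller than the WT SD of 1.45 there, and -3.17 in the low set.

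The Gapdh ratio, which sets the 3′ control probe set over the 5′ one and is larger where cDNA is short, had a median of 2.67 in N1-CKO cells (1.46 to 245) and 1.79 in WT cells (1.40 to 3.26). N1-CKO cells 4, 5, 6, 12 and 13 and WT cells 3 and 7 lay above 3. All of these cells were in the low 18S set, where the groups did not overlap for Tacc3 and Nusap1. The median ratio in that set was 4.30 in N1-CKO cells and 2.07 in WT cells. In the high 18S set it was 1.97 in N1-CKO cells and 1.66 in WT cells. Among the 8 N1-CKO and 11 WT cells at or below 3, the median number of spindle genes was 3.5 in N1-CKO cells (2 to 11) and 10 in WT cells (2 to 19), and the median difference was -2.29, with 23 of 23 genes lower and 12 lower by at least 4-fold, where 9.07% of all genes were. The number of probe sets above a common signal had a median of 4433 in N1-CKO cells (2800 to 5670) and 4764 in WT cells (2558 to 6212). Its correlation with the number of spindle genes was 0.29 in N1-CKO cells and 0.38 in WT cells. The part of these array properties in the differences between groups was not tested.

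Several members had more than 1 probe set, and the brightest was used. Of 44 other probe sets, 30 were lower in N1-CKO cells. Among the 13 detected in at least 2 cells, 12 were lower, the exception being that of Numa1. Those of Kif2c, Kif23, Tacc3, Tpx2 and Ckap2l among the 13 passed through WT cells alone and were bound to be lower. The count of 12 is therefore partly fixed by the filter. A further Tpx2 probe set was detected in 0 N1-CKO cells and 5 WT cells (difference -4.08), and a further Prc1 probe set in 2 N1-CKO cells and 7 WT cells (-3.76), with a correlation of 0.95 to the one used. That of Ckap5 was detected in 2 cells of each group and differed by -0.08, so the direction of Ckap5 rests on its brighter probe set. The other Nusap1 probe set was detected in 0 cells and differed by -0.41, with a correlation of 0.18 to the one used. Those of Tacc3 were detected in 0 N1-CKO cells and in 3 and 5 WT cells, and differed by -1.92 and -2.66. With probe sets averaged, Nusap1 differed by -3.06 and Tacc3 by -3.32, so the sizes given above rest on the brightest probe set.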

How the data were processed

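Intensity values were deposited by the authors as MAS5 signal on a linear scale, per the submitters' processing notes. MAS5 joins the probes of a probe set into 1 value and scales each array. With 2% of values trimmed at each end, all 26 arrays had a mean of 500.0. Its version and settings are not given in the sources. Per the labels' protocols, cDNA was primed with modified oligo dT, tailed and amplified by PCR, which favours 3′ ends. Because arrays are scaled to 1 mean, total RNA per cell cannot be read. The number of arrays limits the precision. Values were analysed with Python 3.11.15, numpy 2.4.6, pandas 2.3.3 and scipy 1.17.1.

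Of 45101 probe sets, 64 controls, 932 with several symbols and those not listed in GEO's platform annotation were left out of gene values, and the brightest probe set by mean log2 signal stood for a gene. No pair of cells had identical profiles (r across probe sets from 0.19 to 0.56). The 13 genes given with full values are the 8 lowest and 5 highest differences among members past the filter. For related lists, up to 3 lowest and 1 highest are named, and Stmn1 was added after its value was seen. The members and lists were chosen with earlier results of these data known, so no count over them is independent evidence. Scripts were tested on simulated data.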

Additional observations from a re-analysis of the deposited data

How the results depend on the processing

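No paired analysis was possible because cell numbers only name cells and no test was made. The median difference over members (-2.63) stayed below 0 under all 14 alternatives and with each cell left out, between -4.03 (low 18S set) and -1.32 (high 18S set), and from -2.99 to -2.42 with 1 cell left out. It was -1.40 with a gene's probe sets averaged, -1.92 with a floor at the 75th percentile, and -2.66 without Numa1, an alternative chosen after seeing the data. The count of members lower by at least 2 on the log2 scale (19) became 11 with the higher floor, 9 with probe sets averaged, 6 in the high 18S set and 12 with a Gapdh ratio of at most 3, and 15 to 20 with 1 cell left out. The share of all genes lower by as much was 6.92% in the main setting, 3.05% with the higher floor and 3.34% with probe sets averaged. It was 13.8% in the high 18S set, 9.07% with the Gapdh limit, and 6.56% to 8.54% with 1 cell left out. Members detected in at least 4 fewer N1-CKO cells (15) became 0 in the high 18S set, which holds 5 cells per group, and 11 to 17 with 1 cell left out. Of all genes, 0.566% were in the high 18S set, and 4.37% to 8.93% with 1 cell left out. The difference in the median number of members per cell (-7) was -13 in the low 18S set, -4 with detection at the 95th percentile, -5 in the high 18S set and -9.5 to -6.5 with 1 cell left out. The difference in mean level (-2.32) was -0.96 in the high 18S set, -1.57 with probe sets averaged, -3.17 in the low 18S set and -2.58 to -2.11 with 1 cell left out. The number of members with a lower mean (22) was 20 to 22 with 1 cell left out, where 21 to 23 members passed the filter. For the 13 members given with full values, 115 of 117 differences under alternatives other than leaving out a cell kept their sign. Cep55 was 0.34 in the high 18S set and Numa1 -0.55 with a Gapdh ratio of at most 3. Numa1 ranged from -0.061 (without WT cell 8) to 1.01 with 1 cell left out. Among the other members past the filter, Kif20a (0.27) and Kif18a (0.40) had the other sign in the high 18S set. Among those under the filter, Hmmr (1.04), Kifc1 (0.27) and Kif14 (0.06) did so too. These genes were detected in 0 cells of either group, so nothing can be said of their direction. That set moved Nusap1 to -2.17, Tacc3 to -0.96, Tpx2 to -0.53, Ect2 to -1.32 and Prc1 to -1.37, and the Gapdh limit moved Kif23 to -0.35. The cause was not tested. Signals at the floor have no order, and a gene absent from the brightest 10% of an array may still be expressed.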
